A study of Mus musculus with 8 samples.

Results

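The cytosolic ribosomal protein genes were taken as every gene of the deposited count table whose symbol is Rps or Rpl followed by a number, Rplp0 to Rplp2, or Rpsa. The rule uses names and no measured value, and it found 77 of the 25239 genes, of which 31 belong to the small subunit and 46 to the large subunit. A filter on low counts kept 75 of them, all 31 of the small subunit and 44 of the large subunit. The filter left out Rpl26, which is listed at 0 in all 8 libraries, and Rpl30, which had 4 to 12 counts in knockout libraries and 1 to 9 counts in control libraries.

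The data are RNA-seq of adult male mouse liver. The 4 knockout libraries came from mice labelled Zfp36l1 fl/fl Alb-Cre+, in which loxP-flanked alleles of Zfp36l1 are combined with a Cre recombinase driven by the albumin promoter. The 4 control libraries came from mice labelled Zf36l1 fl/fl, with the genotype given as WT and no Cre named. The albumin promoter is active in hepatocytes, so other liver cells keep the gene, and since Cre is named only for the knockout, effects of Cre and of the deletion cannot be told apart. The labels give no age beyond adult and leave unsaid whether each library is a separate mouse, so p-values here cover only the spread between these libraries.

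A ribosome holds a single copy of most of its proteins, which are bound to ribosomal RNA in a small subunit that reads the mRNA and a large subunit that joins the amino acids. Their mRNAs start with a run of pyrimidines at the cap, the 5′ terminal oligopyrimidine (TOP) motif, through which growth signals acting on mTOR control their translation as a group. ZFP36L1 recognises AU-rich elements such as UAUUUAU in the 3′ untranslated region (UTR) of an mRNA through its zinc fingers and promotes decay of that mRNA. In the liver the demand for ribosomes is high, since hepatocytes secrete most of the proteins of the blood plasma.

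UAUUUAU, with the same 7 letters searched in the longest annotated 3′ UTR of each gene in GENCODE M21, was rare among these genes. It was present in 2 of the 75 members with a 3′ UTR of at least 20 bases (2.67%), against 4077 of 13707 tested genes (29.7%). The median 3′ UTR was 177 bases long in the members and 1155 bases in all tested genes, so the members also offer less sequence to match. Both members with the word, Rps15a and Rps16, encode small subunit proteins, and none of the 44 large subunit members has it. The sites are shown because they are the places in the members' longest 3′ UTRs where the letters of the ZFP36L1 element occur. At the site centred in each stretch those letters are in capitals. The Rps15a site starts at base 3662 of a 3′ UTR of 4728 bases. The shortest of the Rps15a transcripts with the longest coding sequence has 640 bases in all, fewer than that UTR. Which transcript these libraries hold was not tested. Rps16 has 3 overlapping copies, all within the stretch shown, of which only the first, centred here, is in capitals.

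Rps15a: gauuaugguuuUAUUUAUgacuauggugag

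Rps16: gcuugcuugcuUAUUUAUuuauuuauuuuu

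Promoters were read from RefSeq for GRCm38.p6, which gave 67 windows of 250 bases before to 50 bases after a start for 57 of the 77 genes, 8 of them with several windows. The word CCGGAAG, a core of sites for ETS factors, was searched on both strands and was present in 25 of the 67 windows (37.3%), against 2910 of all 32851 windows (8.86%). A run of at least 8 pyrimidines within 25 bases of the start was present in 31 of the 67 windows (46.3%), against 19.7% of all windows. The palindrome CACGTG was found in 11.9% of the members' windows and 7.15% of all windows, and TATAAA on either strand in 8.96% and 13.6%. The 23 tested members with CCGGAAG had a median log2 fold change of −0.30 with 6 past the threshold, and the 33 without it a median of −0.31 with 10 past the threshold. Below are the 100 bases before the RefSeq start for 3 members that fell in the knockout, Rps3a1, Rps7 and Rpl15. The same is given for 2 whose change did not pass the test, Rpl19 and Rpl41. These stretches are shown to set the ETS word beside members of unlike fold change. Capitals mark CCGGAAG or, where the word lies on the other strand, its reverse complement CTTCCGG. Rpl19 has a further window, not shown, that lacks the word. The Rpl15 window holds 2 such words, 1 of them in the bases shown. A match is a description of these letters and not a site of binding. RefSeq starts can differ from the gene positions of GENCODE M21. The stretches of Rpl15 and Rpl41 lie inside the GENCODE genes, which start at 18271391 and 128549305 on the minus strand. That of Rps3a1 crosses its GENCODE start at 86142702, with the word after that start.

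Rps3a1, chr3:86142669-86142768, minus strand: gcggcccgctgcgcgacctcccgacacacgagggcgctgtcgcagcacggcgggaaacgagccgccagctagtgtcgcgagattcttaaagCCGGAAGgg

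Rps7, chr12:28635954-28636053, minus strand: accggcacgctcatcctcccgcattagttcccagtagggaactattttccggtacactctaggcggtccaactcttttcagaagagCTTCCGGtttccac

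Rpl15, chr14:18270987-18271086, minus strand: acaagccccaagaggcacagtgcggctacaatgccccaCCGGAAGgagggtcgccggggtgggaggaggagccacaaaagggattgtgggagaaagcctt

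Rpl19, chr11:98026610-98026709, plus strand: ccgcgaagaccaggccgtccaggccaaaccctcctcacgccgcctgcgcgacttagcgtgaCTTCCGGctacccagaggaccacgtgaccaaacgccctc

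Rpl41, chr10:128549169-128549268, minus strand: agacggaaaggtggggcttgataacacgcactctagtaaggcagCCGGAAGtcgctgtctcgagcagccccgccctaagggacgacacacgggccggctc

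Total gene counts ran from 120200618 to 140582588 in knockout libraries and from 104842873 to 132017092 in control libraries. In the check of the targeted gene, Zfp36l1 had 57.9 to 76.9 CPM, library-scaled counts, in knockout libraries and 212 to 324 CPM in control libraries, with a log2 fold change of −1.99 (SE 0.14, adjusted p = 0.000309). The libraries carried the hepatocyte markers, at a summed 99249 to 112896 CPM in knockout libraries and 84605 to 90614 CPM in control libraries, with 0 of 12 past the threshold. The threshold was passed by 801 of 14861 tested genes (5.39%), of which 280 (1.88% of those tested) were lower in the knockout and 521 higher. CPM here are scaled by TMM factors, and fold changes are knockout over control on the log2 scale, given with the standard error (SE). Each adjusted p comes from edgeR's quasi-likelihood F test, adjusted by the Benjamini-Hochberg method over all tested genes, with a threshold of 0.05. In whole liver, fewer cells of a type and less RNA per cell cannot be told apart.

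The question set for these genes was whether the mRNAs of the small and the large subunit differ between knockout and control livers, library by library. Ribosomal protein transcripts took a smaller part of every knockout library than of any control library, in both subunits. Small subunit genes took 0.213%, 0.212%, 0.209% and 0.221% of the counts in knockout libraries 1 to 4. They took 0.306%, 0.305%, 0.260% and 0.3001% in control libraries 1 to 4. The knockout libraries lie close together, while control library 3 stands below the other controls and above every knockout. The means were 0.214 ± 0.00522% in the knockout and 0.293 ± 0.0218% in the control (SD, n = 4 each), which is 27.0% lower in the knockout.

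Large subunit genes took 0.315%, 0.316%, 0.310% and 0.331% of the counts in knockout libraries 1 to 4. They took 0.444%, 0.438%, 0.368% and 0.436% in control libraries 1 to 4. The order of the libraries was alike in that knockout library 3 was lowest and knockout library 4 highest in both subunits, with control library 3 again lowest of the controls. The means were 0.318 ± 0.00884% in the knockout and 0.422 ± 0.0358% in the control (SD, n = 4 each), 24.6% lower in the knockout. All members together took 0.532 ± 0.0140% of the knockout libraries and 0.714 ± 0.0576% of the control libraries.

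These shares depend on what else fills the library. The 10 most abundant genes took 18.9% to 20.9% of the counts in knockout libraries and 14.5% to 16.4% in control libraries. Among them, Alb, which encodes serum albumin, averaged 71672 CPM in the knockout and 57566 CPM in the control, and Scd1, a fatty acid desaturase, 48885 CPM and 22177 CPM. With those 10 genes left out, small subunit genes took 0.267 ± 0.00955% of the knockout counts and 0.348 ± 0.0247% of the control counts, and large subunit genes 0.397 ± 0.0152% and 0.501 ± 0.0413%. The groups did not overlap in either subunit after that step. On a per-length scale, in TPM, the share of each gene after division of counts by gene length, the members made up 1.499 ± 0.0437% of the knockout total and 1.97 ± 0.128% of the control total.

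**Figure D1:**
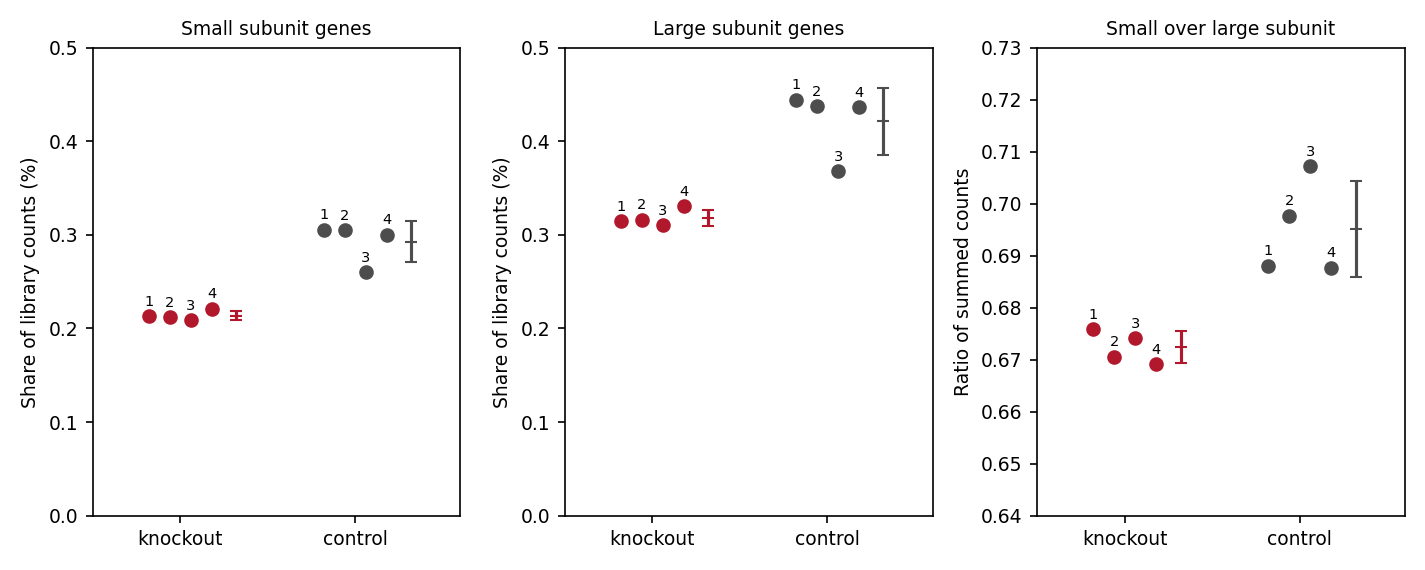
Share of library counts in small subunit genes and in large subunit genes (percent, axes from 0) and the ratio of the summed counts (axis cut at 0.64), with knockout libraries in red on the left and control libraries in grey on the right. Points are libraries numbered as in the labels and bars are mean ± SD (n = 4). In each panel the 4 knockout libraries lie below the 4 control libraries, and control library 3 is the lowest control in both shares and the highest in the ratio.

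The balance of the subunits moved far less than their level. The ratio of small to large subunit counts was 0.676, 0.671, 0.674 and 0.669 in knockout libraries and 0.688, 0.698, 0.707 and 0.688 in control libraries. The groups did not overlap, and the mean ratio was 0.672 ± 0.00312 in the knockout and 0.695 ± 0.00926 in the control, 3.27% lower. Without the most abundant member of each subunit by counts, Rps2 and Rpl4, the ratio was 0.648 ± 0.00693 in the knockout and 0.663 ± 0.00855 in the control, and the groups overlapped. Gene by gene, the median log2 fold change was −0.31 in the 31 small subunit genes and −0.30 in the 44 large subunit genes, a difference of −0.0084 where the median SE of a gene was 0.09 in each subunit. As a percentage of the control level, the median member was 19.1% lower in the small subunit and 18.6% lower in the large subunit.

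All 75 tested members had a fitted fold change below 0, and 19 of them fell, against 1.88% of all tested genes that fell. None rose, and 64 of the 75 had an unadjusted p under 0.05, all lower, against 10.6% of all tested genes that were lower with such a p. The 19 were 7 of 31 small subunit genes and 12 of 44 large subunit genes. The members' median log2 fold change was −0.30 and that of all tested genes −0.01. Groups that do not overlap, with every knockout below every control, were found for 33 of the 75 members (44.0%), against 7.93% of all tested genes. Small subunit genes ranged from −0.53 to −0.04 and large subunit genes from −0.55 to −0.04 on the log2 scale.

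The number of members past the threshold depended on the scaling, on a block for the replicate number and on single libraries. Those of the 75 that were tested stayed below 0 in the fits with all 8 libraries. With no filter on low counts 1 more member, Rpl30, was tested and was not below 0. With the replicate number as a block, fitted because same-numbered libraries correlated over genes, 40 members fell, 19 small and 21 large, with 2.52% of all genes lower. All of the 19 members were among those 40. With total counts alone as the scaling, the median of all genes was −0.12 and 65 members fell, 29 small and 36 large, with 9% of all genes lower. DESeq2 called 46 members lower, with 4.97% of all genes lower, and limma-voom with quality weights 64, with 4.06% of all genes lower, and both gave 0 members higher. Leaving out 1 control library gave 2 lower members without library 1, with 0.474% of all genes lower, and 6 without library 2, with 0.611%. It gave 67 without control library 3, with 2.57% of all genes lower, and 6 without control library 4, with 1.32%. Leaving out 1 knockout library gave 4 lower members without library 1, with 0.361% of all genes lower, and 6 without library 2, with 0.598%. It gave 2 without knockout library 3, with 0.281% of all genes lower, and 13 without knockout library 4, with 1.09%. The median fold change kept within −0.37 to −0.27 in the small subunit and −0.35 to −0.26 in the large subunit across those 8 fits.

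Control library 3 was the lowest control for all 73 members above 5 CPM. In the knockout, library 3 was lowest for 60 of these 73 members and library 4 highest for 47. The highest control was library 1 for 38 members, library 4 for 25 and library 2 for 10. Relative to the mean of the controls, the median small subunit gene stood at −0.30, −0.31, −0.37 and −0.25 on the log2 CPM scale in knockout libraries 1 to 4, and at 0.09, 0.03, −0.23 and 0.08 in control libraries 1 to 4. The median large subunit gene stood at −0.30, −0.28, −0.36 and −0.25 in knockout libraries and at 0.11, 0.03, −0.24 and 0.08 in control libraries. The small and large subunit genes thus moved together from library to library within each group as well as between the groups. Control library 3 also had the lowest summed level of the mitochondrial ribosomal protein genes, 1256 CPM, where knockout libraries had 1322 to 1512 CPM and the other controls 1457 to 1518 CPM. Its part in the results was not tested beyond the fits without it.

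**Figure D2:**
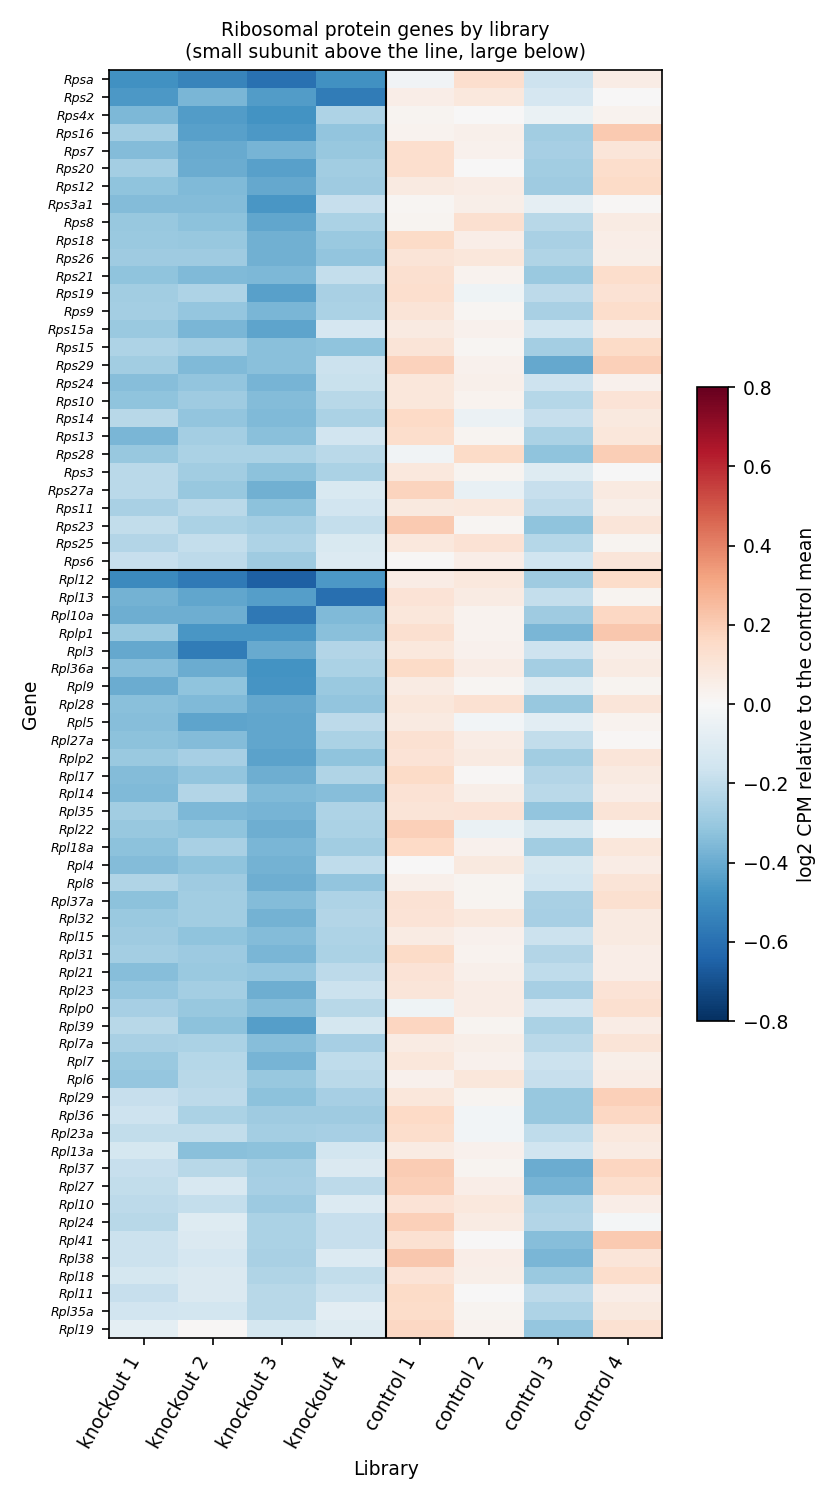
Level of 71 members above 5 CPM in each library as log2 CPM relative to the mean of the controls (blue lower, red higher), with the 4 knockout libraries left of the black line and the 4 controls right of it. Small subunit genes are above the horizontal line and large subunit genes below it, ordered by fold change, and control library 3 is blue in all 71 genes drawn.

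Several small subunit genes fell. Rps2 (chromosome 17, 24718116 to 24721929, mm10), whose protein lies at the channel through which the mRNA enters, had 266, 284, 268 and 248 CPM in knockout libraries and 378, 386, 332 and 366 CPM in control libraries. Every knockout lay well below every control, with a log2 fold change of −0.46 (SE 0.07, adjusted p = 0.0112). Rps3 (chromosome 7, 99477896 to 99483738), a neighbour at the entrance that also has a role in DNA repair, had 120, 115, 111 and 117 CPM in knockout libraries and 148, 142, 130 and 139 CPM in control libraries. The groups did not overlap, and the fold change was −0.27 (SE 0.06, adjusted p = 0.0397). Rps4x, an X-linked gene of the small subunit (chromosome X, 102184941 to 102189394), had 121, 114, 112 and 131 CPM in knockout libraries and 158, 156, 150 and 158 CPM in control libraries. The controls were tightly grouped, and the fold change was −0.38 (SE 0.07, adjusted p = 0.0163).

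Rpsa (chromosome 9, 120127689 to 120132369) encodes a protein of the small subunit that is also described as a laminin receptor at the cell surface. It had 179, 174, 166 and 180 CPM in knockout libraries and 247, 275, 224 and 261 CPM in control libraries. Every knockout lay below every control, and with a log2 fold change of −0.53 (SE 0.08, adjusted p = 0.00757) it had the lowest adjusted p of the members. Rps3a1 fell by 0.33 (SE 0.07, adjusted p = 0.0307), and Rps7, whose protein can bind MDM2, fell by 0.37 (SE 0.09, adjusted p = 0.0449).

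Of the small subunit genes that fell, Rpsa and Rps2 kept their call in all 8 fits that leave out a library, with adjusted p up to 0.0348 for Rpsa and 0.0481 for Rps2. Rps4x lost it without control library 1 (0.0540), knockout library 1 (0.0543) or knockout library 3 (0.0617). Rps3a1 kept it only without control library 3 or knockout library 4, with adjusted p up to 0.0989 in the other fits. Rps3 and Rps7 kept it only without control library 3, with adjusted p up to 0.132 and 0.124 in the other fits. With the replicate block and a removed trend with gene length, Rps3a1 had adjusted p = 0.0576.

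Several much studied small subunit genes did not pass the test. Rps6, whose protein is phosphorylated by S6 kinases when mTOR is active, had 101, 99.1, 94.1 and 106 CPM in knockout libraries and 115, 119, 102 and 122 CPM in control libraries. The groups overlapped through control library 3, with a log2 fold change of −0.20 (SE 0.07, adjusted p = 0.153). Rps19, the gene mutated most often in human Diamond-Blackfan anaemia, had 42.1, 43.1, 37.9 and 42.8 CPM in knockout libraries and 56.2, 49.9, 44.2 and 55.4 CPM in control libraries. Its groups did not overlap, but the fold change of −0.31 (SE 0.09) had adjusted p = 0.0729, or 0.0395 with the replicate block. Rps27a, which is translated as a fusion with ubiquitin, averaged 56.4 ± 4.41 CPM in the knockout and 67.5 ± 7.33 CPM in the control, with a fold change of −0.26 (SE 0.09, adjusted p = 0.139).

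Rps18, Rps20 and Rps15a did not pass, at adjusted p of 0.0637, 0.0673 and 0.0652, and passed with the block, at 0.0421, 0.0311 and 0.0380. They also passed under total counts alone, with DESeq2 and without control library 3, where Rps18 had adjusted p = 0.0121, Rps20 0.0148 and Rps15a 0.0394. Rps18 averaged 77.7 ± 2.32 CPM in the knockout and 97.4 ± 11.5 CPM in the control. Rps29, among the 3 members with the largest spread within groups, averaged 30.0 ± 1.75 CPM in the knockout and 37.0 ± 6.68 CPM in the control (adjusted p = 0.196). In Rps29 control library 3, at 27.5 CPM, was below all 4 knockout libraries. The 2 genes with UAUUUAU in their longest annotated 3′ UTR had fold changes of −0.31 (Rps15a) and −0.38 (Rps16, adjusted p = 0.0616, or 0.0309 with the block).

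In the large subunit, the proteins of the factor-binding stalk and its base, where elongation factors dock, had log2 fold changes of −0.55 to −0.29, and only the base gene passed the test. Rpl12 (chromosome 2, 32961559 to 32965345), at the base of the stalk, had 61.2, 58.9, 55.3 and 63.3 CPM in knockout libraries and 90.7, 92.2, 71.4 and 96.2 CPM in control libraries. Its log2 fold change of −0.55 (SE 0.10, adjusted p = 0.0156) was the lowest of all members. Rplp0, which anchors the stalk, had 205, 200, 194 and 212 CPM in knockout libraries and 241, 258, 222 and 269 CPM in control libraries. The groups did not overlap, and the fold change was −0.29 (SE 0.07, adjusted p = 0.0552, or 0.0460 with the block). Rplp1 and Rplp2, which form the flexible arms, had fold changes of −0.40 (SE 0.12) and −0.34 (SE 0.09). Their adjusted p-values were 0.0773 and 0.0671, and 0.0371 and 0.0374 with the replicate block. Rplp1 had 106, 94.5, 94.6 and 103 CPM in knockout libraries and 142, 133, 101 and 151 CPM in control libraries, so control library 3 fell among the knockouts.

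Rpl3 (chromosome 15, 80077791 to 80091868), close to the catalytic centre, had 132, 119, 132 and 149 CPM in knockout libraries and 185, 178, 156 and 181 CPM in control libraries. The highest knockout, library 4, lay just under the lowest control, library 3, with a log2 fold change of −0.40 (SE 0.09, adjusted p = 0.0296). Rpl4, whose loop reaches into the exit tunnel, averaged 284 ± 15.5 CPM in the knockout and 353 ± 23.9 CPM in the control and fell by 0.31 (SE 0.07, adjusted p = 0.0418). Rpl8, which also contacts the catalytic centre, averaged 101 ± 4.53 CPM in the knockout and 125 ± 9.32 CPM in the control and fell by 0.31 (SE 0.07, adjusted p = 0.0389). Rpl10, which joins the subunit late in assembly, averaged 216 ± 11.2 CPM in the knockout and 249 ± 27.0 CPM in the control, and its change of −0.21 (SE 0.09) did not pass the test (adjusted p = 0.215).

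Rpl5 and Rpl11 encode partners that enter the ribosome together with a small ribosomal RNA and that bind MDM2 when assembly is disturbed. Rpl5 (chromosome 5, 107900502 to 107909005) had 92.7, 87.4, 87.7 and 102 CPM in knockout libraries and 123, 116, 111 and 120 CPM in control libraries. The groups did not overlap, with a log2 fold change of −0.34 (SE 0.07, adjusted p = 0.0253). Rpl11 had 80.9, 84.8, 78.7 and 81.5 CPM in knockout libraries and 102, 91.9, 79.6 and 95.4 CPM in control libraries. Control library 3 lay among the knockouts there, and the fold change of −0.18 (SE 0.08) did not pass the test (adjusted p = 0.235). The difference between the fold changes of Rpl5 and Rpl11 was not tested.

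The other large subunit genes that fell were Rpl13, Rpl9, Rpl10a, Rpl15, Rpl27a, Rpl22 and Rpl14, at log2 fold changes of −0.46 to −0.30. Rpl13 had 71.0, 69.4, 68.2 and 60.9 CPM in knockout libraries and 99.6, 96.5, 81.0 and 93.6 CPM in control libraries, and it was 27.3% lower on average (log2 −0.46, SE 0.08, adjusted p = 0.0167). Rpl10a, of the stalk that moves with the departing transfer RNA, averaged 44.0 ± 2.98 CPM in the knockout and 59.4 ± 7.73 CPM in the control (log2 −0.43, SE 0.10, adjusted p = 0.0383). Rpl22, which has a close paralogue, averaged 51.7 ± 1.99 CPM in the knockout and 64.6 ± 6.44 CPM in the control (log2 −0.32, SE 0.08, adjusted p = 0.0468). The call of Rpl22 was lost with DESeq2 size factors (0.0516) and with no filter on low counts (0.0544), as were those of Rpl14 (0.0511), Rpl4 (0.0535) and Rps3 (0.0549) with no filter.

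Of the 12 large subunit genes that fell, none kept its call in all 8 fits without a library. Rpl12 lost it without control library 1 (adjusted p = 0.0510) or knockout library 3 (0.0562), and Rpl13 without control library 1 (0.0501) or knockout library 3 (0.0560). Rpl9 lost it without control library 1, knockout library 1 or knockout library 3, at up to 0.0617. Rpl5, Rpl3 and Rpl4 kept it only without control library 3 or knockout library 4, with adjusted p up to 0.0830, 0.0936 and 0.132 in the other fits. Rpl10a, Rpl15, Rpl27a, Rpl8, Rpl22 and Rpl14 kept it only without control library 3, with adjusted p up to 0.137 in the other fits. The direction of all 12 was lower in each of the 8 fits.

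The members that changed least were Rpl19 and 2 genes with few counts. Rpl19 had 92.7, 98.6, 88.5 and 91.1 CPM in knockout libraries and 110, 99.6, 78.9 and 106 CPM in control libraries. The groups overlapped, with a log2 fold change of −0.09 (SE 0.10, adjusted p = 0.654). Rpl41, which encodes a peptide that is the shortest of the ribosome, had 34.1, 35.3, 32.2 and 33.7 CPM in knockout libraries and 41.8, 38.4, 30.2 and 44.4 CPM in control libraries (log2 −0.19, SE 0.11, adjusted p = 0.341). Rpl34 had 70 to 118 counts in knockout libraries and 58 to 113 counts in control libraries, and Rps27 had 15 to 35 counts and 18 to 31 counts. At that depth the SE was 0.26 for Rpl34 and 0.40 for Rps27, and the sign of each turned in some fits without 1 library. Without control library 2 or 4 or knockout library 1 or 4, Rpl34 was at 0.05, 0.02, 0.08 and 0.04, and without control library 1 or knockout library 1 or 4, Rps27 was at 0.25, 0.12 and 0.10.

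**Figure D3:**
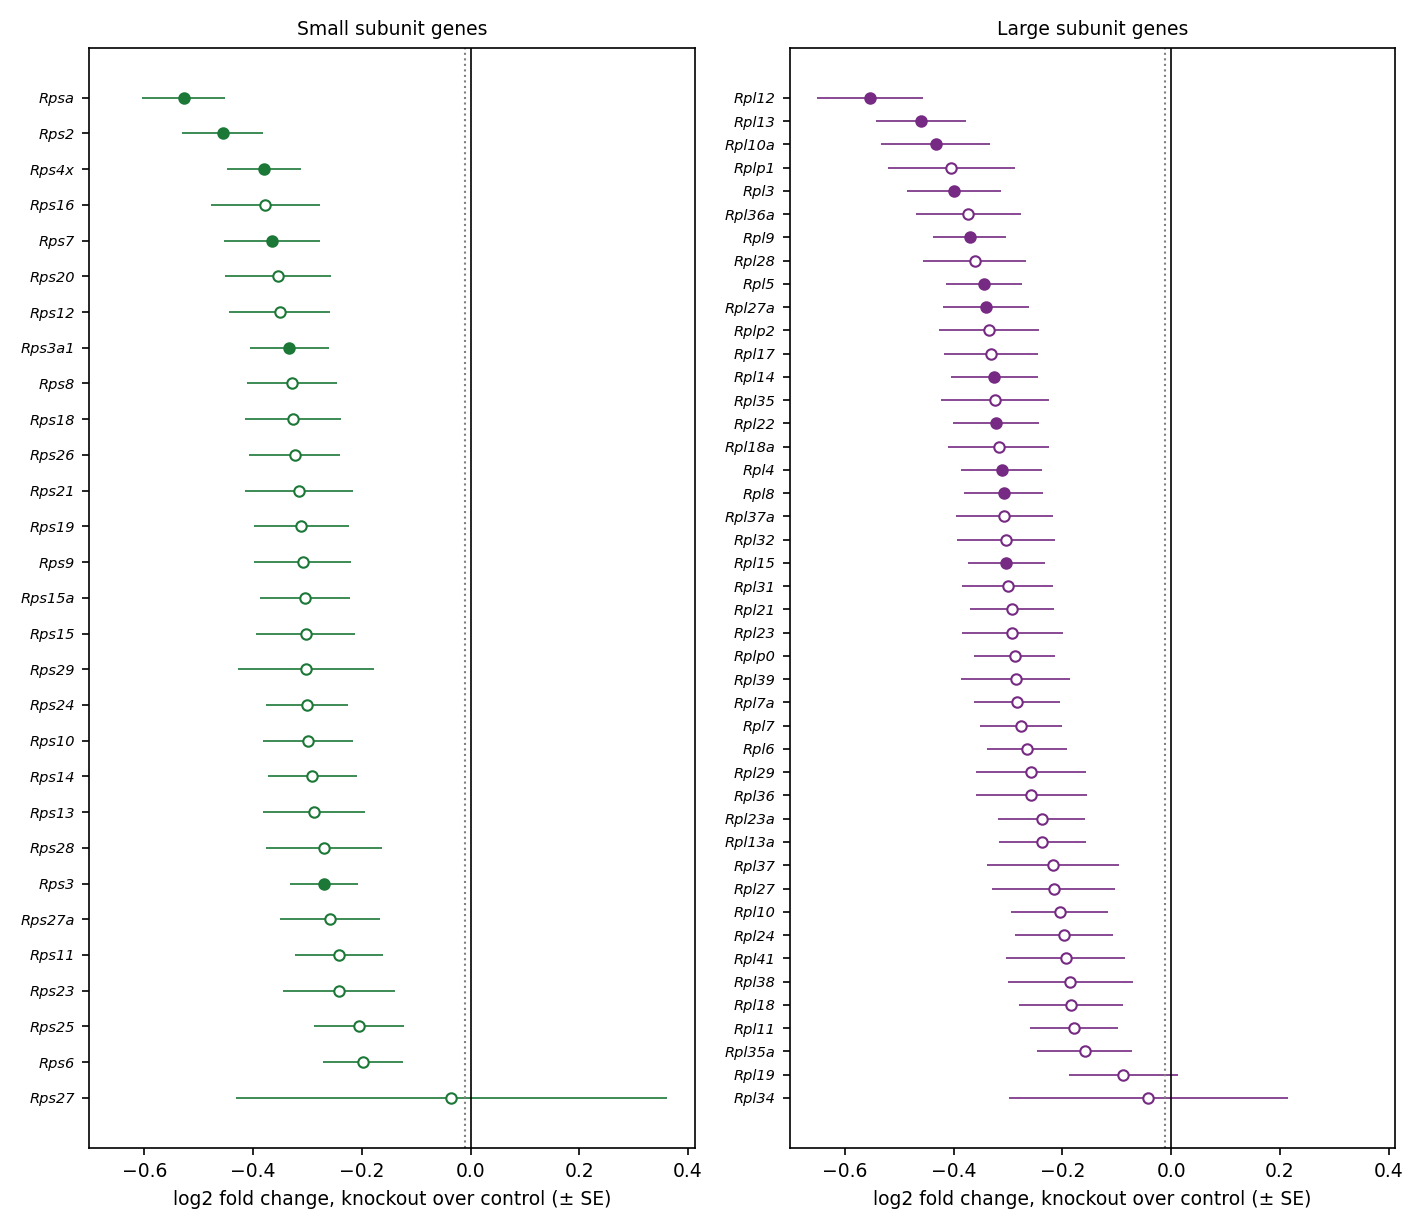
Log2 fold change of knockout over control with its SE for 29 small subunit genes (green, left) and 44 large subunit genes (purple, right), with filled points for the 18 drawn genes past the threshold. The solid line marks 0 and the dotted line the median of all tested genes at −0.01, and every gene drawn lies below 0.

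Ribosomal protein genes have close copies in the genome, mostly processed pseudogenes, and how reads that fit several copies were counted is not given in the sources used here. In GENCODE M21, 76 of the 77 members shared at least 1 stretch of 50 bases with transcripts of another gene, and 48 shared more than 50% of such stretches (median 62.2%). Both strands were matched, so a gene that overlaps a member at the same place is counted too. Rpl35 shared most with Wdr38 (59.0%), which overlaps it on the opposite strand. Rps10 shared most with RPS10-NUDT3 (64.7%), which overlaps it on the same strand. Overlap and separate copies were not told apart here. The levels of these genes are therefore uncertain. The members with almost no counts were Rps27, which shares 98.7% of its stretches, Rpl30 (76.4%), Rpl26 (71.3%) and Rpl34 (48.9%). Rpl35 (95.1%), Rpl5 (93.8%) and Rpl10 (92.1%) averaged 32.2, 117 and 249 CPM in the control. The part of sharing in these levels was not tested. The fold changes were alike over the range of sharing. The 8 tested members that share at most 25% had a median of −0.31 with 5 past the threshold, the 43 that share 25% to 75% a median of −0.30 with 7, and the 24 that share more a median of −0.30 with 7. Rps3 (2.96%), Rpl8 (7.86%), Rpl4 (16.5%) and Rpl22 (24.5%) were among those with little sharing that fell. In 18 members an exon overlaps an exon of another gene on the opposite strand, among them Rps2 with Snhg9, Rpl12 with Lrsam1, Rpl5 with Fam69a and Rpl15 with Nkiras1, and such reads cannot be told apart without the strand setting.

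Per length, in TPM from the deposited gene lengths, the members spanned a wide range although the ribosome holds most of their proteins in equal number. Among the 73 members above 5 CPM, the highest mean was 36.7 times the lowest in the control. Rps2 was the highest in the control, with 609 ± 30.1 TPM in the knockout and 887 ± 44.1 TPM in the control. Next in the control were Rpl10 with 621 ± 31.0 TPM in the knockout and 759 ± 59.7 TPM in the control, and Rplp1 with 487 ± 28.0 TPM in the knockout and 681 ± 86.6 TPM in the control, whose levels lay within their spread in the control but not in the knockout. The lowest were Rps15a with 18.5 ± 1.69 TPM in the knockout and 24.2 ± 0.909 TPM in the control, Rps20 with 24.9 ± 1.34 TPM and 33.6 ± 3.00 TPM, and Rpl22 with 47.3 ± 1.73 TPM and 62.7 ± 4.50 TPM. The deposited lengths of those 3 genes, 5134, 3446 and 2497 bases, are long for ribosomal protein mRNAs and lower the value per length.

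The order of the members was nearly the same in both groups, with a rank correlation of 0.989 between mean knockout TPM and mean control TPM over 73 members, which share lengths and libraries. Median levels were 184 TPM in the knockout and 246 TPM in the control for small subunit genes, and 186 TPM and 232 TPM for large subunit genes. The fold change had little relation to the properties of a member. Its rank correlation over 73 members was −0.13 with control TPM, −0.16 with control CPM, −0.11 with gene length and 0.00 with the share of shared stretches, all given as descriptions. The 36 members of up to 740 bases and the 37 longer ones had medians of −0.30 and −0.31, while 3 of the shorter and 16 of the longer passed the threshold.

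Other short genes had a median near that of all tested genes. Of 1002 other tested genes under 1000 bases, 9 were lower and 27 higher, with a median log2 fold change of 0.00. Of all 14861 tested genes, 280 were lower and 521 higher, with a median of −0.01. The 53 members under 1000 bases had a median of −0.30. Among the 186 of these other genes with at least 20 CPM, 2 were lower and 7 higher, with a median of 0.03. With the trend of counts with gene length removed in each library, the medians were −0.30 in the small and −0.29 in the large subunit. In that fit 53 members fell, with 3.47% of all genes lower. Gene length as a cause of the members' lower level was not tested beyond that fit.

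Genes that work with the ribosome were read from lists that were chosen with earlier results of these data known. Of 8 tested paralogues, fusion genes and ribosome-bound proteins, 2 fell, against 1.88% of all tested genes. Rack1, a scaffold protein on the small subunit, had 131, 125, 122 and 135 CPM in knockout libraries and 173, 178, 152 and 178 CPM in control libraries, with a log2 fold change of −0.41 (SE 0.07, adjusted p = 0.0156). Rpl22l1, the paralogue of Rpl22, had 11.4, 9.04, 10.2 and 13.3 CPM in knockout libraries and 18.5, 19.7, 14.8 and 18.9 CPM in control libraries, and its fold change was −0.71 (SE 0.13, adjusted p = 0.0192). The call of Rack1 was lost without control library 1 (adjusted p = 0.0510), knockout library 1 (0.0502) or knockout library 3 (0.0609). That of Rpl22l1 was lost without these libraries or control library 2, at 0.0548 to 0.0655. Fau, which is translated as a fusion with a ubiquitin-like protein, was at −0.18 (adjusted p = 0.298). Rpl7l1 was at −0.06, Rpl36al at 0.05, Rps27l at 0.03 and Rps4l at −0.16, with adjusted p of 0.726 to 0.905.

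Other mRNAs with a TOP motif, which encode translation factors and related proteins, had 3 of 19 lower, against 1.88% of all tested genes, with none higher and a median log2 fold change of −0.20. Npm1, a nucleolar chaperone, averaged 67.6 ± 2.54 CPM in the knockout and 84.1 ± 3.42 CPM in the control and fell by 0.32 (SE 0.06, adjusted p = 0.0204). Eif3e, a subunit of an initiation factor, averaged 54.6 ± 0.933 CPM in the knockout and 67.6 ± 3.77 CPM in the control and fell by 0.31 (SE 0.06, adjusted p = 0.0240). Ipo5, an importin that carries ribosomal proteins into the nucleus, fell by 0.28 (SE 0.07, adjusted p = 0.0457, or 0.0564 with the block). The most abundant of the list, the elongation factor gene Eef1a1, averaged 4015 ± 69.6 CPM in the knockout and 4077 ± 33.0 CPM in the control, with adjusted p = 0.881. Npm1 lost its call without control libraries 1 or 2 or knockout libraries 1 or 3 (adjusted p up to 0.0751), Eif3e without these or knockout library 2 (up to 0.0832), and Ipo5 kept it only without control library 1 (up to 0.136 in the other fits). Under scaling by total counts alone 10 of the 19 were lower, where 9% of all genes were, and with the replicate block 4 were lower, where 2.52% of all genes were, and 1 higher. The 7 host genes of small nucleolar RNAs with a TOP motif had a median of −0.11 and none past the threshold.

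Of 61 tested genes for making ribosomes, 5 fell, against 1.88% of all tested genes, none rose and the median log2 fold change was −0.12. Dkc1, which modifies ribosomal RNA, averaged 12.9 ± 0.509 CPM in the knockout and 17.0 ± 0.958 CPM in the control (log2 −0.39, SE 0.07, adjusted p = 0.0173). Heatr3, which helps to bring RPL5 into the nucleus, averaged 25.2 ± 1.70 CPM in the knockout and 32.5 ± 1.22 CPM in the control (log2 −0.37, SE 0.07, adjusted p = 0.0195). Npm1, Ddx10 and Las1l were the others, and 17 of the 61 were lower under total counts alone (9% of all genes) and 11 with DESeq2 (4.97% of all genes). Of 23 genes for the growth control of ribosome synthesis 1 rose, against 521 of all 14861 tested genes. None of the 23 fell, and their median was 0.04. The gene that rose was Larp4, an RNA-binding protein of the La family. It had 129 ± 11.5 CPM in the knockout and 101 ± 6.99 CPM in the control (log2 0.35, SE 0.08, adjusted p = 0.0419, or 0.0907 under total counts alone). Dkc1 lost its call without knockout libraries 1 or 3 (up to 0.0655), Heatr3 without these or control library 2 (up to 0.0617), and Ddx10 and Las1l kept theirs only without control library 3 (up to 0.0928 and 0.104 in the other fits). Larp4 kept its call only without control library 4 (up to 0.104 in the other fits). The 78 mitochondrial ribosomal protein genes had a median of −0.01, with 1 higher and none lower. Of them 7 had an unadjusted p under 0.05 in either direction, against 3190 of all 14861 tested genes. DESeq2 called 2 of these 78 lower and 2 higher.

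**Figure D4:**
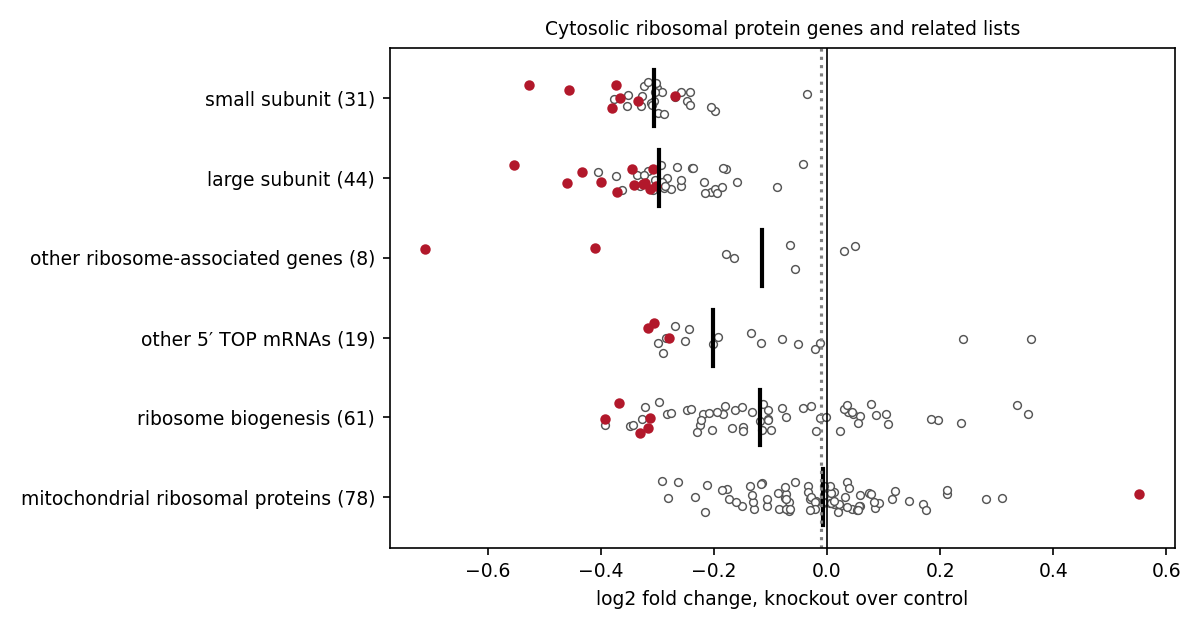
Log2 fold change of knockout over control for each tested gene of the small subunit (31), the large subunit (44) and 4 related lists, with filled red points past the threshold, a black bar at each list's median and a dotted line at the median of all tested genes. The medians are −0.31 and −0.30 for the subunits, −0.11 for other ribosome-associated genes, −0.20 for other TOP mRNAs, −0.12 for ribosome biogenesis and −0.01 for the mitochondrial ribosomal proteins.

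Markers of other cell types of the liver were measured beside these results. Neutrophil markers, 8 genes of which 5 were tested, summed to 69.2, 1.77, 1.28 and 30.8 CPM in knockout libraries and 5.62, 1.42, 1.96 and 8.64 CPM in control libraries, with 0 of the 5 past the threshold. Knockout libraries 1 and 4 were high in them, and all members together took 0.528% and 0.552% of the counts there, against 0.528% and 0.519% in knockout libraries 2 and 3. Kupffer cell and macrophage markers summed to 170 to 453 CPM in knockout libraries and 205 to 286 CPM in control libraries, with 0 of 12 past the threshold. Lymphocyte markers summed to 3.07 to 6.10 CPM in knockout libraries and 2.89 to 7.37 CPM in control libraries, endothelial markers to 210 to 304 CPM and 210 to 295 CPM, and stellate cell markers to 322 to 502 CPM and 270 to 405 CPM, with none past the threshold in any of the 3 lists. With the replicate block 375 of all 14861 tested genes were lower and 653 higher. In that fit 1 of 10 lymphocyte genes passed, Cd4 (log2 −0.71, adjusted p = 0.0236), and 1 of 10 endothelial genes, Lyve1 (log2 0.72, adjusted p = 0.0231). So did 1 of 12 hepatocyte genes, Ttr (log2 0.41, adjusted p = 0.0351), and 1 of 3 erythrocyte genes, Slc4a1 (log2 1.27, adjusted p = 0.0275). These fold changes are from the fit without the block, where the medians of the lists were 0.00, 0.10, −0.01 and 1.13. Cholangiocyte markers summed to 49.2 to 61.4 CPM in knockout libraries and 68.8 to 78.4 CPM in control libraries. Of these 8 genes 1 fell, Sox9, with 5.17 ± 1.98 CPM in the knockout and 11.7 ± 1.69 CPM in the control (log2 −1.18, SE 0.23, adjusted p = 0.0242), a call that held only without control libraries 3 or 4 or knockout library 1 (up to 0.0745 in the other fits). Of the erythrocyte list 3 genes were tested and none passed, and 4 globin genes (Hbb-bt, Hbb-bs, Hba-a2, Hba-a1) had a listed value of 0 in every library. The part of these cell types in the level of the ribosomal protein genes was not tested.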

How the data were processed

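Total RNA from liver was extracted with the illustra QuickPrep kit and libraries were made with NEBNext Ultra II, per the labels' protocols. The deposited table, made by the authors, holds unnormalized counts by gene symbol for each library, beside a gene length in bases. The build was mm10 per the submitters' processing notes, and the aligner, counting tool, annotation and strand setting are not stated in the labels, headers or notes used here (not given in the sources used). Columns were matched to samples by library name, with 0 columns of other samples.

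Counts were filtered with filterByExpr, which kept 14861 genes and left out 10378, normalized with TMM and tested with edgeR 4.0.16 (R 4.3.3; glmQLFit with robust estimation and glmQLFTest, 6 residual degrees of freedom, biological coefficient of variation 0.204) at a threshold of 0.05 after Benjamini-Hochberg adjustment. SEs are approximate, from the fold change and F. The scripts were tested on simulated counts. Total counts were 104842873 to 140582588 per library, and 3 counts correspond to 0.0213 to 0.0286 CPM, which covers counting error only. TPM were computed from the deposited counts and lengths. DESeq2 1.42.0, limma 3.58.1, other scalings, filters, a length correction, halved counts and each library left out were alternatives.

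Both groups are numbered 1 to 4. Deviations from the group mean, over genes, correlated at 0.165, 0.387, 0.306 and 0.402 between libraries of the same number. Correlations between libraries of different number are not given here. The labels do not state a pairing, and the fit reported here used genotype alone. Replicate number was fitted as a block as an alternative.

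Members, lists and tests were chosen with earlier results of these data known, so no p is given for a list. Named members are those past the threshold with the 12 lowest adjusted p, the 4 lowest p per direction and subunit, the 3 highest and 3 lowest TPM of each subunit, the 3 with the largest spread, and a fixed set of 14. Rpl8, Rpl14, Rpl27a, Rps7, Rps16, Rpl19, Rpl26, Rpl30, Eef1a1, Alb and Scd1 were added after their values were seen. Values of a few genes are not given here, and 2 tested members are not drawn in the figures. Positions, 3′ UTRs and shared 50-base stretches come from GENCODE M21 for GRCm38, and promoters from RefSeq GRCm38.p6.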

Additional observations from a re-analysis of the deposited data

Results flagged for a closer look

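In 5 of the 68 groups of 4 libraries checked, 1 library lay far from the others by Dixon's criterion, which chance reaches in about 1 in 20 groups. The groups are not independent, since they share libraries and Rplp2, one of the flagged genes, is part of the large subunit share. Control library 3 was the lowest control for all 73 members above 5 CPM, and it was the low library in 3 of the 5. Small subunit genes took 0.260% of its counts and large subunit genes 0.368%, against 0.3001% to 0.306% and 0.436% to 0.444% in the other controls. Rplp2 had 38.6 CPM in control library 3, against 49.0 to 50.3 CPM in the other controls. Rps18 had 74.2 CPM in knockout library 3, against 78.6 to 79.0 CPM in the other knockouts, a spread that is small beside its distance from most controls. Rps27 had 0.286 CPM in control library 1, against 0.143 to 0.158 CPM in the other controls, which is 31 counts against 18 to 20.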

How the results depend on the processing

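The direction of the median fold change of both subunits was lower in all 20 fits, counting the one reported. Under total counts alone, DESeq2 and limma-voom with quality weights, the number of changed genes was 1730, 1738 and 1434 (801 as reported), of small subunit genes 29, 20 and 29 (7 as reported) and of large subunit genes 36, 26 and 35 (12 as reported). The replicate block gave 1028 changed genes, 19 small and 21 large. Removing the length trend gave 23 small and 30 large, and removing it with the replicate block gave 24 small, 31 large and 1416 genes in all. Leaving out 1 library at a time gave 211 to 967 changed genes, 2 to 28 small and 0 to 39 large. Fewer libraries leave fewer residual degrees of freedom, yet the highest counts came without control library 3. The small subunit median was −0.42 under total counts alone. The ratio of small to large subunit counts, knockout over control, was 0.967 and became 0.977 in TPM and 0.977 without the most abundant member of each subunit. The sign of Rpl34 turned in 4 fits without a library (0.05, 0.02, 0.08 and 0.04) and that of Rps27 in 3 (0.25, 0.12 and 0.10), over ranges of −0.24 to 0.0782 and −0.41 to 0.25 across the 8 fits, where counts are low. The cause of the other shifts was not tested. Of the 31 named members, the replicate block kept the side of the threshold for 24 and brought 7 past it, and it ended no call. Halved counts and TMM without the members changed no call of a named member. Members with under 120 counts per library cannot show changes of the size seen in the others.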
